A study of Mus musculus with 6 samples.

Results

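Notch signalling was examined through 10 genes: the receptors *Notch1*, *Notch2* and *Notch4*, the ligands *Jag1*, *Jag2*, *Dll1* and *Dll4*, the DNA-binding factor *Rbpj* and the target genes *Hes1* and *Hey1*. They were chosen by gene name from the 54532 genes of the deposited count table; the rule uses no measured value, but the list was drawn up with earlier results of these data known. All 10 were among the 14522 genes that had enough counts to be tested. The 6 libraries were made from polyA RNA of Ly6G- CD11b+ cells, which the labels call cardiac macrophages, collected from C57BL/6 mice, 12 weeks old, 7 days after permanent occlusion of the left anterior descending coronary artery. The control group (3 libraries) came from ITGA5 fl/fl mice, which carried the floxed allele of the integrin α5 gene *Itga5* without Cre, and the Myα5KO group (3 libraries) from LyzM-Cre; ITGA5 fl/fl littermates. The comparison asked how loss of integrin α5 in myeloid cells altered gene expression in macrophages of the healing infarct. Every mouse of both groups was infarcted, so no value from an uninjured heart enters here. LyzM-Cre recombines in monocytes, macrophages and neutrophils, so the deletion is not restricted to macrophages. The methods describe digestion of the hearts of individual mice, but do not say that each library is a single heart. The p-values test the group difference against variation between these libraries, estimated with information from all tested genes.

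Notch is a cell-surface receptor that is activated by a ligand on a neighbouring cell. Ligands of the Jagged (*Jag1*, *Jag2*) and Delta-like (*Dll1*, *Dll4*) families pull on the receptor, which lets ADAM proteases and then γ-secretase cut it and release its intracellular domain. This domain enters the nucleus and joins RBPJ and Mastermind-like coactivators on DNA, which turns on targets such as *Hes1* and *Hey1*, both transcriptional repressors. In macrophages the pathway is known for its link with Toll-like receptor responses, and in monocytes for a switch of cell fate driven by DLL1. In the vessel wall DLL4 and JAG1 have opposite actions on sprouting, and *Notch4*, *Dll4* and *Hey1* are typical of endothelial cells.

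The libraries held 15424451 to 18419287 counts, and each Myα5KO total exceeded each ITGA5 fl/fl total. Levels of single genes are given as CPM, the count relative to the library total after scaling by the trimmed mean of M-values (TMM). *Itga5*, the targeted gene, was at 607 ± 43.2 CPM in the controls and at 48.7 ± 1.48 CPM in the Myα5KO group (SD, n = 3 each), or 8.02% of the control level (adjusted p = 4.419e-12, edgeR quasi-likelihood test). The macrophage markers *Adgre1*, *Csf1r* and *Cd68* were present in every library, and the 9 macrophage markers summed to 12630–12870 CPM in controls and 11890–12560 CPM in Myα5KO libraries. The 18 endothelial markers summed to 784–831 and 781–930.1 CPM, with none at 0 in any library, so the sorted cells were not free of endothelial RNA.

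The transcripts of 2 receptors and 1 ligand were lower in Myα5KO infarct macrophages. *Jag1* fell to 61.3% of the control mean, *Notch1* to 69.5% and *Notch2* to 80.7%, and in each of these 3 genes the highest Myα5KO library lay below the lowest control. None of the 10 genes was called higher by edgeR or DESeq2, and 0 were higher at an unadjusted p under 0.05. Thus 3 of the 10 were called, all lower by edgeR (DESeq2 called the same number, with 9.24% of its genes called in either direction), where 8.75% of all tested genes were called in either direction 5.19% were called lower and 3.56% higher. With scaling by library size alone 3.57% were lower and 8.35% higher, and of the members *Jag1* and *Notch1* were still called lower. The other ligands, *Notch4*, *Rbpj* and the targets *Hes1* and *Hey1* did not pass the test, and the median log2 fold change of the 10 genes was -0.04, against 0.01 over all tested genes. In CPM, 3 of the 10 genes did not overlap between the groups, against 28.6% of all tested genes. Calls were more frequent among abundant transcripts: 16.1% of genes with a mean of at least 50 CPM were called and 6.11% of those below. *Notch1*, *Notch2*, *Jag1* and *Rbpj* stood above that level, and the other 6 genes below it. Over 16 other settings of the test, *Notch1* and *Jag1* were each called in 15 and *Notch2* in 7.

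The region around a RefSeq transcription start is shown for the 3 genes whose transcripts were lower, so that their sequences can be compared. Each is the RefSeq window from 250 bases before to 50 bases after the start on GRCm38.p6, written 5′ to 3′ on the strand of the gene, and capitals mark GC boxes (GGGCGG on either strand). The windows are *Notch1* at chr2:26503773-26504072 on the minus strand, *Notch2* at chr3:98013288-98013587 on the plus strand and *Jag1* at chr2:137116471-137116770 on the minus strand. The *Notch1* window lies inside the span of the counted gene (chr2:26457903-26516663), not at its 5′ end.
Notch1: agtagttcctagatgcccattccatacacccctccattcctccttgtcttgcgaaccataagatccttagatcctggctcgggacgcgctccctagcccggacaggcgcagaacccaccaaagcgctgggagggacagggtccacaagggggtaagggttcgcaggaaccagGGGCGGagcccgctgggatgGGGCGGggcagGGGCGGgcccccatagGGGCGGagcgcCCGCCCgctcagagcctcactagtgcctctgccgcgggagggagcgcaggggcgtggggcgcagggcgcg
Notch2: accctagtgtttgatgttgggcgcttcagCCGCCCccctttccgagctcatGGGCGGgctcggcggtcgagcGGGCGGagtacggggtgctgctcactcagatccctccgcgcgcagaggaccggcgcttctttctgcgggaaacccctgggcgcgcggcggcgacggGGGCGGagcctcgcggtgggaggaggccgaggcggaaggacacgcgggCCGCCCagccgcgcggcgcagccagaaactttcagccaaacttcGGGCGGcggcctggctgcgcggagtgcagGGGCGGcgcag
Jag1: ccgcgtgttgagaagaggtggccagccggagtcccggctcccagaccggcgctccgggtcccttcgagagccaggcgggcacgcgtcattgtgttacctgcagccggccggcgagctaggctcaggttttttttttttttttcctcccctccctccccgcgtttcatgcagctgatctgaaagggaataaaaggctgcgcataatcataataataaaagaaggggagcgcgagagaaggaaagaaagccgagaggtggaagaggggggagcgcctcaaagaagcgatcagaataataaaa

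The sequences of *Notch1* and *Notch2* are rich in GC and hold 5 and 7 GC boxes, which are the letters read by the Sp family of transcription factors. The *Jag1* window holds none and instead carries a long run of T and stretches rich in A. GC content was 68.3% in *Notch1*, 73.0% in *Notch2* and 55.7% in *Jag1*, with a median of 52.7% over the 32851 windows of the table. At least 1 GC box was present in 35.7% of all windows and in windows of 5 of the 8 members that had an entry. The core of the RBPJ site (TGGGAA on either strand) was found in 25.6% of all windows and in none of these 3, and among the members only in *Rbpj* itself. The AP-1 site (TGANTCA on either strand), found in 7.81% of all windows, was present in *Dll1* and *Notch4*. None of these motifs was present in the windows of all 3 lowered genes, and a match marks letters only. *Hes1* and *Hey1* had no entry.

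Among the receptors, *Notch2* and *Notch1* were lower and *Notch4* was not called. *Notch1* (ENSMUSG00000026923, chr2:26457903-26516663, minus strand, GRCm38) is the founding member of the mammalian receptors. It had 176, 171 and 161 CPM in the controls and 127, 126 and 99.8 CPM in the Myα5KO libraries, from counts of 2624, 2907 and 2826 against 2390, 2350 and 1897. All 3 Myα5KO values lay below all controls, and replicate 3 was the lowest. The log2 fold change (Myα5KO over ITGA5 fl/fl) was -0.52 (SE 0.087, 95% interval -0.71 to -0.34, adjusted p = 0.0029).

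*Notch2* (ENSMUSG00000027878, chr3:98013527-98150361, plus strand) is the receptor that directs the fate of marginal zone B cells and of some dendritic cells and monocytes. Its levels were 327, 312 and 312 CPM in controls and 282, 258 and 228 CPM in Myα5KO libraries. The groups again did not overlap, but the distance between the lowest control and the highest Myα5KO library was smaller than for *Notch1*. A log2 fold change of -0.31 was estimated (SE 0.078, 95% interval -0.48 to -0.14, adjusted p = 0.0267). This call depended on the set of libraries: the adjusted p was 0.0793, 0.0768 and 0.0751 without ITGA5 fl/fl replicate 1, 2 or 3 and 0.0746 without Myα5KO replicate 2, with log2 fold changes of -0.29, -0.32, -0.32 and -0.32. It was also lost when CPM were scaled by library size alone (-0.23, adjusted p = 0.0687).

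*Notch4* (ENSMUSG00000015468, chr17:34564268-34588503, plus strand), the receptor typical of endothelium, was at 21.7, 17.3 and 17.0 CPM in controls and 19.96, 23.4 and 20.9 CPM in Myα5KO libraries. The groups overlapped through control replicate 1. Its log2 fold change was 0.20 (SE 0.11, 95% interval -0.04 to 0.44, adjusted p = 0.299), and this interval does not reach the values measured for *Notch1* and *Notch2*; the difference between receptors was not itself tested. *Notch3*, the fourth receptor and a marker of mural cells, was at 22.3 ± 1.91 CPM in controls and 19.5 ± 3.31 CPM in Myα5KO libraries (n = 3 each), and its difference did not pass the test (log2 fold change -0.19, 95% interval -0.45 to 0.07, adjusted p = 0.375).

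**Figure D1:**
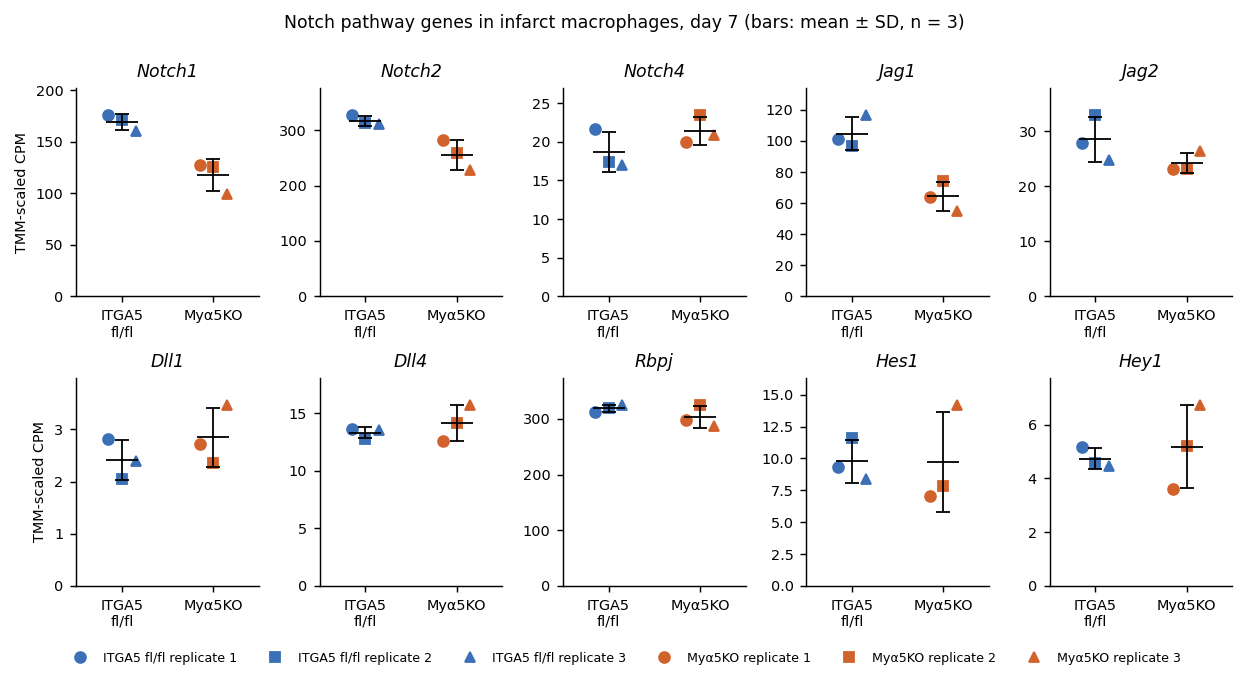
TMM-scaled CPM of the 10 genes in each of the 6 libraries (vertical axes, each from 0 and with its own scale) for ITGA5 fl/fl and Myα5KO mice; horizontal lines are group means with SD (n = 3) and the marker shape gives the replicate number. The 3 Myα5KO libraries sit below all 3 controls for *Notch1*, *Notch2* and *Jag1*, and the groups overlap for the other 7 genes.

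Among the ligands, *Jag1* was lower, and *Jag2*, *Dll1* and *Dll4* were not called. *Jag1* (ENSMUSG00000027276, chr2:137081456-137116644, minus strand) encodes Jagged-1, a ligand made by macrophages, endothelium and smooth muscle. Its levels were 101, 96.7 and 117 CPM in controls and 63.7, 74.1 and 55.0 CPM in Myα5KO libraries, from counts of 1509, 1646 and 2048 against 1197, 1385 and 1046. The lowest control stood well above the highest Myα5KO library. With a log2 fold change of -0.71 (SE 0.10, 95% interval -0.92 to -0.49, adjusted p = 0.0011), it had the largest difference of the 10 genes.

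*Jag2* (ENSMUSG00000002799, chr12:112907819-112929776, minus strand), the second Jagged ligand, was at 27.8, 32.9 and 24.8 CPM in controls and 23.1, 23.2 and 26.4 CPM in Myα5KO libraries. Myα5KO replicate 3 exceeded control replicate 3, so the groups overlapped. Its log2 fold change was -0.23 (SE 0.11, 95% interval -0.46 to -0.0037), with an unadjusted p of 0.0469 in edgeR and an adjusted p of 0.209.

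*Dll4* (ENSMUSG00000027314, chr2:119325784-119335962, plus strand), the Delta-like ligand of arterial and sprouting endothelium, was at 13.6, 12.8 and 13.5 CPM in controls and 12.6, 14.2 and 15.7 CPM in Myα5KO libraries. *Dll1* (ENSMUSG00000014773, chr17:15367354-15376872, minus strand) was at 2.82, 2.06 and 2.39 CPM in controls and 2.72, 2.35 and 3.47 CPM in Myα5KO libraries, from 35 to 66 counts per library. For both Delta-like genes Myα5KO replicate 3 was the highest of the 6 libraries and the others overlapped. The log2 fold change was 0.09 for *Dll4* (SE 0.11, 95% interval -0.14 to 0.33, adjusted p = 0.667) and 0.24 for *Dll1* (SE 0.23, 95% interval -0.25 to 0.73, adjusted p = 0.577). The wide interval of *Dll1* includes both no difference and a difference upward as large as that of *Jag1* downward. The remaining ligand genes *Dll3*, *Dlk1* and *Dlk2* were below the count filter.

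**Figure D2:**
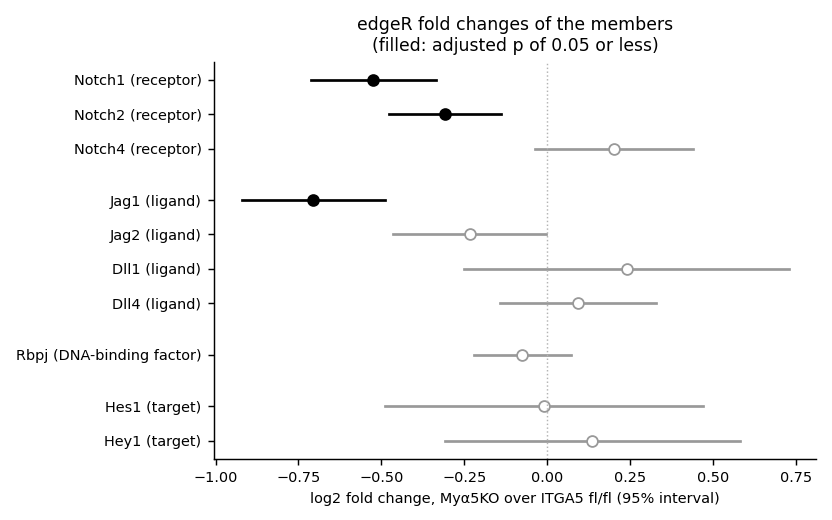
Log2 fold changes (horizontal axis, Myα5KO over ITGA5 fl/fl) of the 10 genes with 95% intervals from edgeR, grouped by role (vertical axis); filled black points passed an adjusted p of 0.05. The intervals of *Notch1*, *Notch2* and *Jag1* lie below 0, from -0.92 for the lower end of *Jag1* to -0.14 for the upper end of *Notch2*; the interval of *Jag2* ends at -0.0037 and its adjusted p was 0.209.

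*Rbpj* (ENSMUSG00000039191, chr5:53466152-53657362, plus strand), which encodes the factor through which all receptors act on DNA, differed little between the groups. It was at 312, 320.2 and 325 CPM in controls and 297, 325 and 286 CPM in Myα5KO libraries, with Myα5KO replicate 2 level with the highest control. Its log2 fold change was -0.07 (SE 0.068, 95% interval -0.22 to 0.07, adjusted p = 0.559). A processed pseudogene, *Rbpj-ps3*, took 7 to 21 counts per library against 4655 to 6076 for *Rbpj*. The handling of reads that match both copies is not given, so these counts do not measure how many reads were shared.

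*Hes1* (ENSMUSG00000022528, chr16:30064384-30067796, plus strand), the most widely used readout of Notch activity, was at 9.32, 11.6 and 8.37 CPM in controls and 7.03, 7.87 and 14.2 CPM in Myα5KO libraries. The Myα5KO group held both the 2 lowest libraries and the highest library. The means were 9.77 ± 1.68 and 9.70 ± 3.92 CPM (SD, n = 3), and the log2 fold change was -0.01 (SE 0.22, 95% interval -0.49 to 0.47, adjusted p = 0.986). Myα5KO replicate 3 decided this value: without it the log2 fold change was -0.39 (adjusted p = 0.173), and without Myα5KO replicate 1 it was 0.17.

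*Hey1* (ENSMUSG00000040289, chr3:8663359-8667256, minus strand), a target prominent in endothelium, was at 5.16, 4.58 and 4.44 CPM in controls and 3.62, 5.19 and 6.73 CPM in Myα5KO libraries, from 68 to 128 counts. The controls lay within the range of the Myα5KO libraries, which again had replicate 3 at the top. The log2 fold change was 0.14 (SE 0.21, 95% interval -0.31 to 0.58, adjusted p = 0.748), and -0.10 without Myα5KO replicate 3. Neither target had an unadjusted p under 0.05 in edgeR or a call by DESeq2, and both intervals were wide: that of *Hes1* includes differences in either direction larger than that of *Notch2*.

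**Figure D3:**
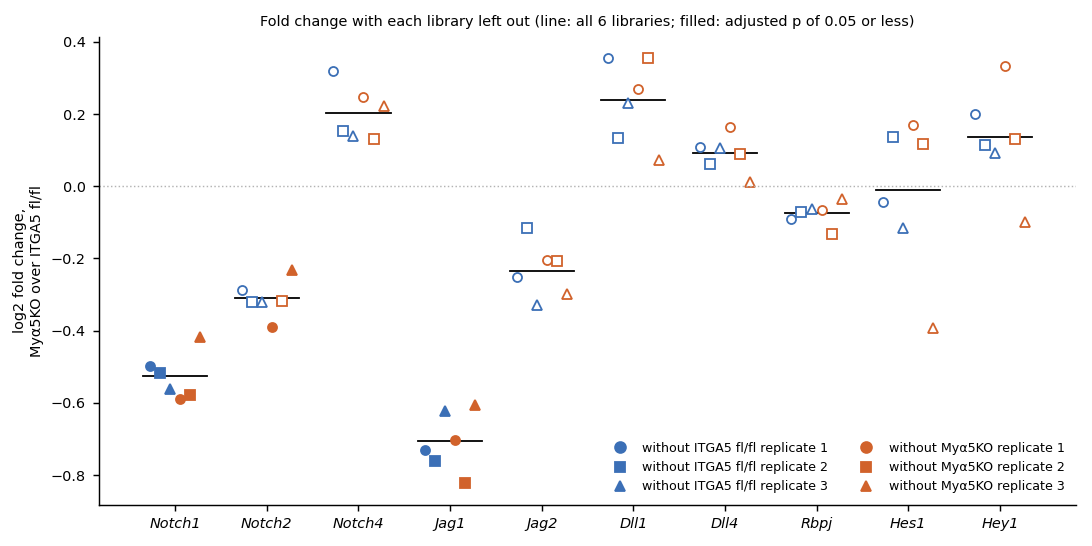
Log2 fold changes (vertical axis) of the 10 genes (horizontal axis) when each of the 6 libraries was left out in turn; black lines give the value with all 6 libraries and filled symbols passed an adjusted p of 0.05. *Notch1* (-0.59 to -0.42) and *Jag1* (-0.82 to -0.61) passed in all 6 fits and *Notch2* (-0.39 to -0.23) in 2, while *Hes1* (-0.39 to 0.17) and *Hey1* (-0.10 to 0.33) changed sign.

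The libraries differed in ways that ran along with these values. Myα5KO replicate 3 was the lowest of the 6 libraries for *Notch1*, *Notch2* and *Jag1* and the highest for *Hes1*, *Hey1*, *Dll1* and *Dll4*. It had the highest sum of the 18 endothelial markers (930.1 CPM, against 781 and 797 CPM in the other Myα5KO libraries and 784–831 CPM in controls). Single markers differed in this: *Pecam1* (96.4 CPM) and *Kdr* (62.4 CPM) were highest in Myα5KO replicate 3. *Cdh5* (90.8 CPM) and *Vwf* (62.9 CPM) were higher in ITGA5 fl/fl replicate 1 (95.4 and 71.3 CPM). Myα5KO replicate 3 also had the lowest sum of the 9 fibroblast markers (1218 CPM, against 1434 and 1586 CPM in the other Myα5KO libraries and 1626–1905 CPM in controls), with none at 0. *Notch1*, *Notch2* and *Jag1* were each still called by edgeR without this library. Their log2 fold changes were then -0.42, -0.23 and -0.605, each the smallest difference of the 6 fits with a library left out. The adjusted p of *Notch2* was then 0.0491, close to the threshold. Of the endothelial markers, *Kdr* was called higher (log2 fold change 0.26, adjusted p = 0.0433) and *Cldn5* lower (-0.44, adjusted p = 0.0356), and the defining *Pecam1* (0.17, adjusted p = 0.142) and *Cdh5* (-0.03, adjusted p = 0.875) were not called. With a library left out *Kdr* passed in 0 of 6 fits (log2 fold change 0.19 to 0.30) and *Cldn5* in 2 of 6 (-0.58 to -0.37). The part of other cell types in the Notch values was not tested, and in such bulk samples fewer cells of a type and less RNA per cell cannot be told apart.

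Other cell type markers also moved with genotype. The sum of 8 monocyte markers was 1236–1383 CPM in controls and 1667–1974 CPM in Myα5KO libraries. *Nr4a1*, also an immediate early gene, made up 76.5% of this sum, and the other 7 summed to 291–327 and 416–452 CPM. Of the 8, 6 were called higher, beside 3.56% of all tested genes called higher. Among the 6 were *Nr4a1* (0.42, adjusted p = 0.0097), *Ccr2* (0.58, adjusted p = 0.0011) and *Ly6c2* (0.71, adjusted p = 0.0022). Of 6 tested neutrophil markers, the granule genes *Mpo*, *Elane*, *Ltf* and *Camp* were higher, beside 3.56% of all tested genes called higher. The other 2, *Csf3r* (0.13, adjusted p = 0.378) and *Retnlg* (-0.65, adjusted p = 0.311), were not called. *Csf3r* made up 81.3% of the neutrophil sum. *Cxcr2* and *Ly6g*, the antigen used for depletion, were below the count filter, and *Ly6g* had 0 to 2 counts per library. The B-cell marker *Cd79b* was higher. Of 4 tested T- and NK-cell markers *Cd2* was called higher, with *Cd3d* at 0 in at least 1 library. Of 7 dendritic-cell markers *Cd209a* was called higher. Over all tested genes 3.56% were called higher. Log2 fold changes were positive for all 4 tested T- and NK-cell markers. Among the dendritic-cell markers 3 were positive and 4 negative, and the sums of the groups (93.1–121 and 113–125 CPM) overlapped. Fewer markers were called lower: *Postn* of 9 fibroblast, *Des* of 9 mural and *Tnnt2* and *Actc1* of 8 cardiomyocyte genes. The share called lower among all tested genes was 5.19%. Negative log2 fold changes were found in 8 of the 9 fibroblast, 7 of the 9 mural and 6 of the 8 cardiomyocyte genes. The list medians were -0.28, -0.19 and -0.28. The fibroblast sums of the groups did not overlap and were lower in the Myα5KO libraries. The same held for the cardiomyocyte sums (20.37–22.67 CPM in controls and 13.68–18.04 CPM in Myα5KO libraries). The mural sums (155–167 and 129–164 CPM) overlapped. Of the 9 macrophage markers, *Fcgr1* was called higher (0.27, adjusted p = 0.0215) and none was called lower. The other 8 had negative log2 fold changes that did not pass, and the list median was -0.05. The macrophage sums did not overlap and were lower in the Myα5KO libraries (12630–12870 and 11890–12560 CPM). With a library left out, *Cd2* passed in 1 of 6 fits, *Fcgr1*, *Tnnt2* and *Cd79b* in 2, *Postn* and *Cd209a* in 3, *Elane* in 4, *Mpo* and *Nr4a1* in 5, and *Des*, *Actc1*, *Ltf*, *Camp*, *Ccr2* and *Ly6c2* in 6. The part of these lists in the lower *Notch1*, *Notch2* and *Jag1* was not tested.

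Levels can be set side by side between genes only per gene length, as FPKM, the fragment count relative to gene length and to library depth. The order then rests on the deposited lengths: 14232 bases for *Notch1*, 12750 for *Rbpj*, 10782 for *Notch2* and 5827 for *Jag1*. In CPM, the control and Myα5KO means of *Notch1* (169 and 118) were above those of *Jag1* (105 and 64.3). Likewise, the means of *Rbpj* (319 and 303 CPM) were above those of *Notch2* (317 and 256 CPM). Other lengths were not tried. By the mean FPKM of the 6 libraries the order was *Notch2* (26.4), *Rbpj* (24.3), *Jag1* (14.4), *Notch1* (10.02), *Hes1* (4.74), *Jag2* (3.76), *Dll4* (3.54), *Notch4* (2.47), *Hey1* (1.51) and *Dll1* (0.62). Pooled over the genotypes, the ranges of *Notch2* and *Rbpj*, of *Jag1* and *Notch1*, of *Hes1* and *Jag2* and of *Jag2* and *Dll4* overlapped. Within a genotype *Jag1* lay above *Notch1* without overlap in both groups (16.5–19.95 against 11.3–12.3 FPKM in controls and 9.28–12.7 against 6.89–8.92 FPKM in Myα5KO libraries). *Hes1* was above *Jag2* in all 6 libraries, although their ranges overlapped in each group. The order also differed with genotype: in controls *Notch2* (29.3 ± 0.86 FPKM) lay above *Rbpj* (24.9 ± 0.50 FPKM) and *Jag2* (4.07 ± 0.57 FPKM) above *Dll4* (3.44 ± 0.14 FPKM), both without overlap. In Myα5KO libraries *Notch2* (23.6 ± 2.66 FPKM) and *Rbpj* (23.6 ± 1.69 FPKM) overlapped, as did *Jag2* (3.45 ± 0.24 FPKM) and *Dll4* (3.65 ± 0.37 FPKM), so these neighbours did not differ beyond their spread there. The macrophage preparations thus held mainly *Notch2* among receptors and *Jag1* among ligands, and it was these abundant genes, with *Notch1*, that were lower in Myα5KO libraries.

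**Figure D4:**
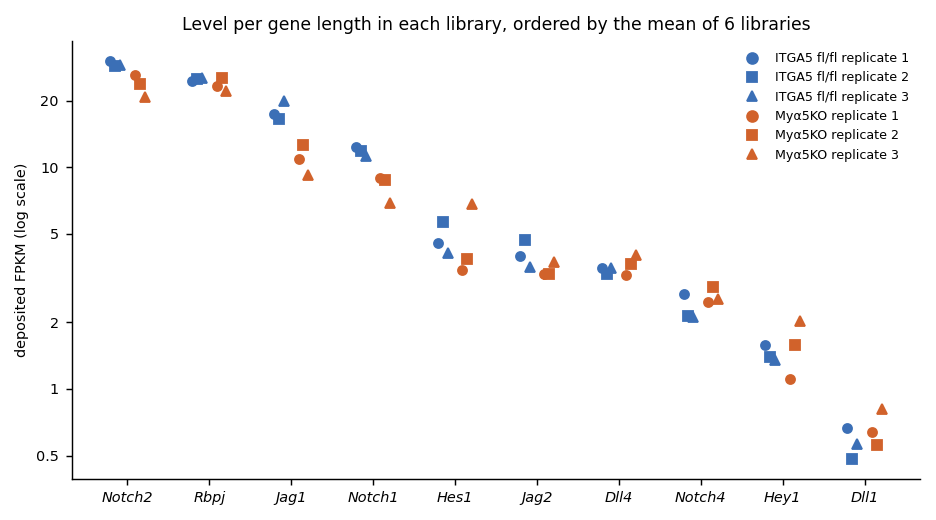
Deposited FPKM (vertical axis, log scale) of the 10 genes (horizontal axis), ordered by the mean of the 6 libraries, with each library as a point (colour for genotype, shape for replicate number). Over both genotypes, values run from 26.4 for *Notch2* to 0.62 for *Dll1* in the mean; *Notch2*, *Jag1* and *Notch1*, at places 1, 3 and 4, are the genes with separated groups.

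The make-up of the receptor and ligand pools shifted with these differences. The 4 receptor genes, *Notch3* included, summed to 46.2 ± 1.78 FPKM in controls and 36.8 ± 3.49 FPKM in Myα5KO libraries (SD, n = 3 each). *Notch1* took 25.6 ± 0.66% of this sum in controls and 22.2 ± 1.29% in Myα5KO libraries, and *Notch4* 4.98 ± 0.50% and 7.21 ± 0.88%, without overlap in either case. *Notch2* held 63.4 ± 0.64% and 63.95 ± 1.28%, and *Notch3* 5.97 ± 0.43% and 6.62 ± 1.63%, both with overlap. The 4 member ligands summed to 26.0 ± 1.40 and 18.7 ± 1.30 FPKM. *Jag1* made up 68.8 ± 3.23% of the ligand sum in controls and 58.3 ± 5.56% in Myα5KO libraries, and *Dll4* 13.2 ± 0.55% and 19.6 ± 2.55%, both without overlap. The level of *Dll4* itself did not pass the test; shares of a sum are tied to each other, and they are given here as descriptions, with no test.

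The rest of the pathway was covered by 67 further genes in 10 roles, of which 61 were tested. In all, 4 were higher and 6 lower, or 16.4% of those tested, beside 8.75% of all genes, and the median log2 fold change was 0.02. The 61 genes include abundant and scarce transcripts. Of all tested genes, 16.1% were called at a mean of at least 50 CPM and 6.11% below it. With scaling by library size alone 6 were higher and 4 lower: *Ep300* and *Tle1* were then called higher (adjusted p = 0.0450 and 0.0494), and *Furin* (0.0530) and *Cdkn1a* (0.0814) were not called. The machinery that activates the receptor held no call in the reported edgeR test or in DESeq2. None of 5 ubiquitin ligases that drive ligand endocytosis passed the test (1 at an unadjusted p under 0.05 in edgeR), including the abundant *Neurl3* (641 ± 49.3 and 636 ± 43.7 CPM, log2 fold change -0.01, adjusted p = 0.945). Neither of the 2 shedding proteases passed, 0 at an unadjusted p under 0.05 in edgeR (*Adam17*, log2 fold change 0.04, 95% interval -0.10 to 0.18, and *Adam10*, 0.09, 95% interval -0.07 to 0.25). None of 7 γ-secretase genes passed, with 2 lower at an unadjusted p under 0.05 in edgeR (*Ncstn*, the substrate-binding subunit, log2 fold change 0.04, adjusted p = 0.772). The γ-secretase gene *Aph1c* came nearest (83.0 ± 6.92 and 70.1 ± 2.99 CPM, log2 fold change -0.24, adjusted p = 0.0575). *Aph1c* was called lower by edgeR without a count filter (adjusted p = 0.0403), with at least 10 counts in every library (0.0412) and without ITGA5 fl/fl replicate 2 (0.0376).

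Of 6 genes of receptor glycosylation and maturation, *Furin*, the convertase that cuts the receptor precursor, was lower at 663, 602 and 641 CPM in controls and 513, 553 and 466 CPM in Myα5KO libraries (log2 fold change -0.32, SE 0.077, adjusted p = 0.0224). *Furin* lost its call without ITGA5 fl/fl replicate 1 or 3 (adjusted p = 0.0756 and 0.0828). *Lfng*, which modifies receptor sugars and shifts the preference among ligands, was at 210.2 ± 3.71 and 184 ± 8.26 CPM and did not pass (-0.19, adjusted p = 0.0845).

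Of the nuclear partners of RBPJ, 2 were called higher and 1 lower. The called shares were 12.5% of coactivators and 16.7% of corepressors, beside 8.75% of all tested genes. Of 8 coactivators, the acetyltransferase *Kat2a* was higher (27.3 ± 1.78 and 33.6 ± 0.77 CPM, log2 fold change 0.30, adjusted p = 0.0344), and *Ep300* (0.16, adjusted p = 0.198; 0.24 with scaling by library size) and the Mastermind-like genes were not called. Of 12 corepressors, the deacetylase *Hdac2* was higher (34.3 ± 2.11 and 42.0 ± 3.38 CPM, 0.30, adjusted p = 0.0401) and the Groucho-family gene *Tle3* lower (235 ± 8.08 and 190 ± 5.93 CPM, -0.31, adjusted p = 0.0098). *Kat2a* passed in 0 of 6 edgeR fits with a library left out (adjusted p 0.0693 to 0.108), and neither *Kat2a* (adjusted p = 0.0587) nor *Hdac2* (0.0524) passed in DESeq2. *Hdac2* passed in 1 of 6, without Myα5KO replicate 1 (adjusted p 0.0552 to 0.148 in the other 5), and *Tle3* in 5 of 6, with an adjusted p of 0.0594 without ITGA5 fl/fl replicate 2.

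Among 10 genes of receptor trafficking and turnover, 3 members of the Deltex family of ubiquitin ligases were called. This was 30.0% of the role, beside 8.75% of all tested genes. *Dtx2* was at 43.2, 40.4 and 46.7 CPM in controls and 28.2, 32.5 and 28.0 CPM in Myα5KO libraries (log2 fold change -0.55, SE 0.086, adjusted p = 0.0018), and *Dtx3* was at 45.3 ± 4.95 and 33.4 ± 4.24 CPM (-0.44, adjusted p = 0.0165). *Dtx3l*, which works with PARP9 in interferon responses and DNA repair, was higher (26.4 ± 1.33 and 34.3 ± 4.56 CPM, 0.37, adjusted p = 0.0333). *Dtx4* was not called (-0.11, adjusted p = 0.383). With 1 library left out *Dtx2* passed in 6 of 6 fits, *Dtx3* in 4 (adjusted p = 0.0862 without ITGA5 fl/fl replicate 3 and 0.0501 without Myα5KO replicate 2) and *Dtx3l* in 1, without Myα5KO replicate 3 (adjusted p 0.0609 to 0.120 in the other 5).

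Further target genes gave 1 higher and 2 lower among 10 tested, or 30.0%, beside 8.75% of all tested genes. *Ccnd1*, which encodes cyclin D1, was at 45.0, 53.6 and 49.7 CPM in controls and 68.3, 72.9 and 62.7 CPM in Myα5KO libraries (log2 fold change 0.46, SE 0.081, adjusted p = 0.0039). *Nfkb2*, which encodes the p100 subunit of NF-κB, was at 375 ± 13.8 and 287 ± 17.4 CPM (-0.39, adjusted p = 0.0042), and *Cdkn1a*, the cell cycle inhibitor p21, at 875 ± 39.9 and 720 ± 51.8 CPM (-0.28, adjusted p = 0.0325). *Ccnd1* and *Nfkb2* passed in 6 of 6 fits with a library left out and *Cdkn1a* in 1, without Myα5KO replicate 2 (adjusted p 0.0507 to 0.142 in the other 5). All 3 are controlled by several other pathways. The targets used most narrowly as Notch readouts did not pass: *Heyl* (0.07, adjusted p = 0.893) and *Nrarp* (0.22, adjusted p = 0.716) were not called, *Hey2* and *Ptcra* were below the filter and *Hes5* had no count in any library. Among the direct readouts *Hes1*, *Hey1*, *Heyl* and *Nrarp* no difference was detected, and their 95% intervals ran from -0.31 or below to 0.47 or above.

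**Figure D5:**
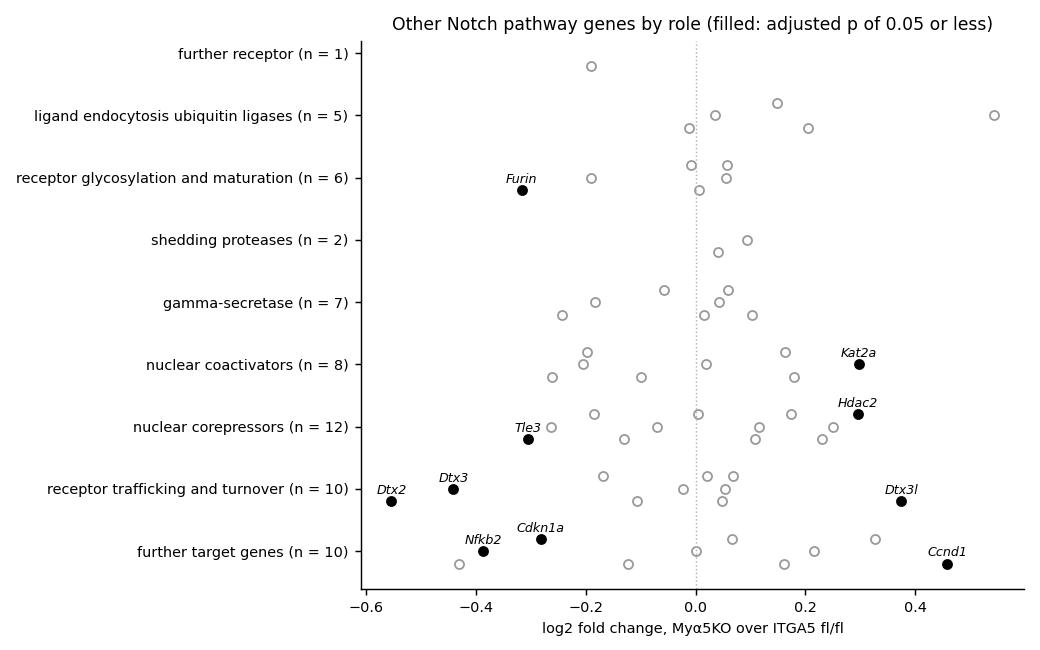
Log2 fold changes (horizontal axis, Myα5KO over ITGA5 fl/fl) of the 61 tested further Notch pathway genes, grouped by role (vertical axis; small vertical shifts only separate points); filled and named points passed an adjusted p of 0.05. The 4 higher and 6 lower genes fall among the modifying, nuclear, turnover and target genes, and no gene of the ligand endocytosis, shedding or γ-secretase groups passed.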

How the data were processed

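Macrophages were obtained from infarcted hearts by magnetic depletion of Ly6G+ cells and selection of CD11b+ cells, and polyA libraries were sequenced as paired ends. Per the submitters' processing notes and the methods, the authors aligned filtered reads to GRCm38.p6 (mm10) with TopHat2 2.0.9 and counted reads per gene with HTSeq 0.6.1, which gave the deposited count table; strand and multi-mapping settings are not given in the sources used here, so reads of a gene and of genes overlapping it on the other strand cannot be told apart. Cufflinks 2.1.1 was used by the authors to assemble mapped reads. The deposited FPKM are those counts divided by gene length and by a constant for each library. In all libraries 100% of the FPKM values lay within 1% of the count divided by length and by a constant proportional to the DESeq2 size factor.

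Counts were tested in R 4.3.3 with edgeR 4.0.16 (TMM, filterByExpr with a minimum count of 10 and a minimum total of 15, quasi-likelihood test, two-sided), fitted on the whole table with Benjamini-Hochberg adjustment over all 14522 tested genes, and called at an adjusted p of 0.05 or less. CPM were scaled by TMM, and fold changes have the control as denominator. Alternatives were DESeq2 1.42.0, 2 other scalings, other filters on low counts, limma 3.58.1 on log2(FPKM + 1) and log2(FPKM + 0.1), a replicate block, an adjusted p of 0.01 and leaving out each library. The functions were tested on simulated data. Promoter windows came from a RefSeq table (8 of the 10 genes matched) and were searched for 3 motifs on both strands.

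The 10 genes, the 67 further Notch genes and the 10 marker lists were chosen with earlier results of these data known. Named genes were the 10 genes, *Itga5*, every called gene of the Notch lists with up to 4 further genes per role by mean CPM, called and defining markers, and for each called member the 3 genes nearest in pattern; *Nrarp*, *Aph1c*, *Tle1*, the overlapping genes and the genes below the count filter fall outside that rule and were named after their values were seen. The split at 50 CPM, the receptor sum with *Notch3* and the marker sum without *Nr4a1* were also chosen after seeing the data. Within a group, libraries differed by more than sampling noise (chi-square per degree of freedom of at least 5.59), so no library was counted as a copy of another. Myα5KO replicate 3 stood furthest from its group, at 14.8 against replicate 1 and 9.9 against replicate 2. The other pairs within a group were at 5.59 to 7.58. Part of the B-cell marker results is not reported here.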

Additional observations from a re-analysis of the deposited data

How the results depend on the processing

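Of the 10 genes, 3 were called in the reported test, and also with DESeq2, with median-ratio scaling, without a count filter, with at least 10 counts in every library and with a replicate block. *Notch1* and *Jag1* alone were called with scaling by library size, on log2(FPKM + 1) or log2(FPKM + 0.1), and at an adjusted p of 0.01, and 2 to 3 were called with a library left out. On log2(FPKM + 1) without an FPKM filter limma called 0 (3 at an unadjusted p under 0.05), with 10 calls among all 27687 genes tested. *Notch2* had an adjusted p of 0.0864 and 0.0890 on the filtered FPKM scales. Of the further Notch genes 10 were called, 4 with either pseudocount after the FPKM filter, 4 at an adjusted p of 0.01, 0 without an FPKM filter (limma, 14 at an unadjusted p under 0.05) and 4 to 9 with a library left out. Over all genes 1271 calls became 472 and 448 on the FPKM scales with pseudocounts of 1 and 0.1, 470 at an adjusted p of 0.01 and 616 to 1091 with a library left out (723 without ITGA5 fl/fl replicate 2, 616 without ITGA5 fl/fl replicate 3 and 819 without Myα5KO replicate 2). The cause of these changes was not tested.

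With scaling by library size alone the share of calls that were higher went from 40.7% to 70.1%, and values near 0 changed sign: *Rbpj* to 0.0056, *Hes1* to 0.071 and *Neurl3* to 0.068. With a library left out *Hes1* ran from -0.39 to 0.17, *Hey1* from -0.10 to 0.33 and *Neurl3* from -0.061 to 0.048. Replicate numbers are shared between the groups in the labels. A fit with the replicate number as a block called 3 of the 10 genes, 9 further Notch genes and 1181 genes in all, and *Hdac2* lost its call there (adjusted p = 0.0581). The numbers gave no sign of pairing: same-numbered libraries deviated from their group means with correlations of 0.0518, -0.0749 and 0.0412. Libraries with different numbers gave -0.111 to 0.0768. With 3 libraries per group these values cannot decide whether the samples were prepared in pairs. Low counts limit *Dll1* and *Hey1*, and 3 libraries per group limit every value.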

Other observations

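The genes whose pattern over the 6 libraries lay nearest to each lowered member were found by the root mean square difference of centred log2 CPM, as a description with no test, since the members share genotype and library with every gene compared. Nearest to *Notch1* were *Sh3pxd2b*, a podosome scaffold (difference 0.0313, log2 fold change -0.48), *Arhgap42* (0.0338, -0.72, at a mean of 1.22 CPM) and *Pde4b*, a cAMP phosphodiesterase (0.0392, -0.53). Nearest to *Notch2* were *Wipi1*, an autophagy gene (0.0232, -0.28), *Cd93*, a C-type lectin-like receptor of myeloid and endothelial cells (0.0255, -0.32), and *Lamc1*, the laminin γ1 chain (0.0287, -0.34). Nearest to *Jag1* were *Smim3* (0.0516, -0.71), *Gm8850* (0.0530, -1.17, at a mean of 0.75 CPM) and *Eaf1*, a transcription elongation cofactor (0.0639, -0.70). Of these 9 genes, *Arhgap42*, *Wipi1* and *Gm8850* did not pass an adjusted p of 0.05 in edgeR.

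Genes annotated within the spans of the members held few counts. *Gm42820* and *Gm42819*, on the strand of *Notch2*, had 19 to 37 and 4 to 21 counts per library, and *0610009E02Rik*, opposite *Notch1*, had 1 to 13.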
